A study of Mus musculus with 9 samples.

Results

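Genes that FoxO transcription factors are known to control, or that arrest growth, were followed across the mouse hearts of this study. These 10 genes are the cell cycle and growth arrest genes Cdkn1a, Cdkn1b, Gadd45a, Ccng2 and Bcl6, the metabolic regulators Pdk4 and Txnip, the antioxidant enzymes Cat and Sod2, and the mitochondrial death and mitophagy gene Bnip3. The genes were taken by symbol, with every probe set (a group of oligonucleotide probes that reads 1 transcript) that the platform annotation gives for them. This found all 10 genes, with 14 of the 12488 probe sets on the array, and 13 of the 14 were bright enough to be tested.

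RNA from the ventricles of 9 mice was measured, with 1 array per mouse and 3 mice in each of 3 groups. The caPI3K mice carried a constitutively active phosphoinositide 3-kinase (PI3K) transgene and had hearts 20% larger than those of their wild type littermates, per the labels. The dnPI3K mice carried a dominant negative PI3K transgene and had hearts 17% smaller. The NTG mice had no transgene and were the controls of both, so the comparisons with NTG share their control arrays. Animal numbers of caPI3K and NTG mice come from the same series, and dnPI3K mice have numbers of other series, so that number series and dnPI3K cannot be told apart. These lines are known from earlier work to use the alpha-myosin heavy chain promoter, which is active in heart muscle cells. The promoter, strain, sex and age are not given in the sources used here.

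PI3K makes a membrane lipid that brings the kinase Akt to the membrane, where it is activated. Active Akt phosphorylates the FoxO factors, which then leave the nucleus, so that genes they switch on are transcribed less. In heart muscle FoxO factors are known for controlling cell size, protein breakdown, fuel choice and defence against oxidants. On this textbook scheme the 10 genes would be lower in caPI3K and higher in dnPI3K hearts.

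Each array had been scaled to a trimmed mean of 500.4 before deposition, and the median intensity of an array was 174.8 to 194 units. Intensities below are quantile normalized, and 35.34 units, the 20th percentile, was used as the floor. The dnPI3K arrays stood apart from the others in control probe sets. The 3′ probe set for 18S ribosomal RNA read 3303 to 8097 on dnPI3K arrays and 461.8 to 670.6 on the other arrays. Spike-in controls (geometric mean of 9 probe sets on each array) were at 1567 to 1984 on dnPI3K arrays and 2607 to 3519 on the others. Marker genes of heart muscle cells summed to 147700 to 149000 units in caPI3K, 158800 to 163000 in dnPI3K and 146900 to 167800 in NTG, and none of the 6 measured was on the floor in a whole group. Fast skeletal muscle markers summed to 15690 to 22110 in caPI3K, 9459 to 11860 in NTG and 3624 to 4721 in dnPI3K, and smooth muscle markers to 2355 to 2793, 3141 to 3474 and 4066 to 5150. The skeletal sums rest mainly on Myl1 and Casq1. Of the 6 tested skeletal markers 3 were above 0 and 3 below in caPI3K against NTG (median log2 fold change 0.13), and Mylpf read 190 to 212.7 in caPI3K and 242.9 to 290.9 in NTG. In dnPI3K against NTG 1 was above 0 and 5 below (median -0.64). There 2 were lower at an adjusted p below 0.05 (limma), where 2.18% of all probe sets passed. In caPI3K against dnPI3K 5 were above 0 and 1 below (median 0.54), and 2 were higher, where 3.24% of all probe sets passed. The higher smooth muscle sums in dnPI3K rest mainly on Acta2, at 2021 to 2894 in dnPI3K and 1170 to 1457 in NTG. Of the 4 tested smooth muscle markers 3 were above 0 and 1 below in dnPI3K against NTG (median 0.42), and 1 was higher past the same threshold. In caPI3K against dnPI3K all 4 were below 0 (median -0.88), and 2 were lower past it. Mylk read 918.3 to 1137 in dnPI3K, 1072 to 1295 in NTG and 918.8 to 1039 in caPI3K. In the skeletal list Tnni2 lay on the floor on every NTG and caPI3K array, and in the smooth muscle list Cnn1 lay on it on every caPI3K and dnPI3K array. Markers of atrial muscle did not move together, and their sums, most of them Myh6, were 34450 to 48150 in caPI3K, 44080 to 46050 in dnPI3K and 41380 to 57090 in NTG. Myl4, the atrial light chain, read 498.6, 421.4 and 4304 in caPI3K, 27.91, 49.68 and 36.14 in dnPI3K and 6896, 3669 and 222.7 in NTG, varying widely within caPI3K and NTG. Nppa, the atrial natriuretic peptide, was highest in dnPI3K, at 11230, 8414 and 9192, against 1450 to 3527 in caPI3K and 1553 to 6840 in NTG. Erythroid markers summed to 41970 to 51870 in caPI3K, 32930 to 42490 in dnPI3K and 33660 to 46130 in NTG. All 3 of them were above 0 in caPI3K against dnPI3K (median 0.58), and 0 passed an adjusted p of 0.05. All 7 fibroblast markers were also above 0 there (median 0.24), and 1 passed. No endothelial, macrophage, lymphocyte or adipocyte marker passed in any comparison. The part of these differences in the results below was not tested. In whole tissue, fewer cells of a type and less RNA per cell cannot be told apart.

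None of the 13 tested probe sets changed past the threshold in any comparison (limma, Benjamini-Hochberg adjusted p below 0.05 over all 10645 probe sets tested). Of all probe sets, 0.0845% passed it in caPI3K against NTG, 2.18% in dnPI3K against NTG, 3.24% between the transgenic groups and 2.63% for a difference among any of the 3 groups. At an unadjusted p under 0.05 the members numbered 1, 2 and 3 in the same order of comparisons (7.69%, 15.4% and 23.1%), and the background shares were 6.9%, 14.8% and 16.4%. For a difference among any groups they numbered 2 (15.4%), against 15.7%. The members' shares therefore lay close to those of the array as a whole.

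**Figure D1:**
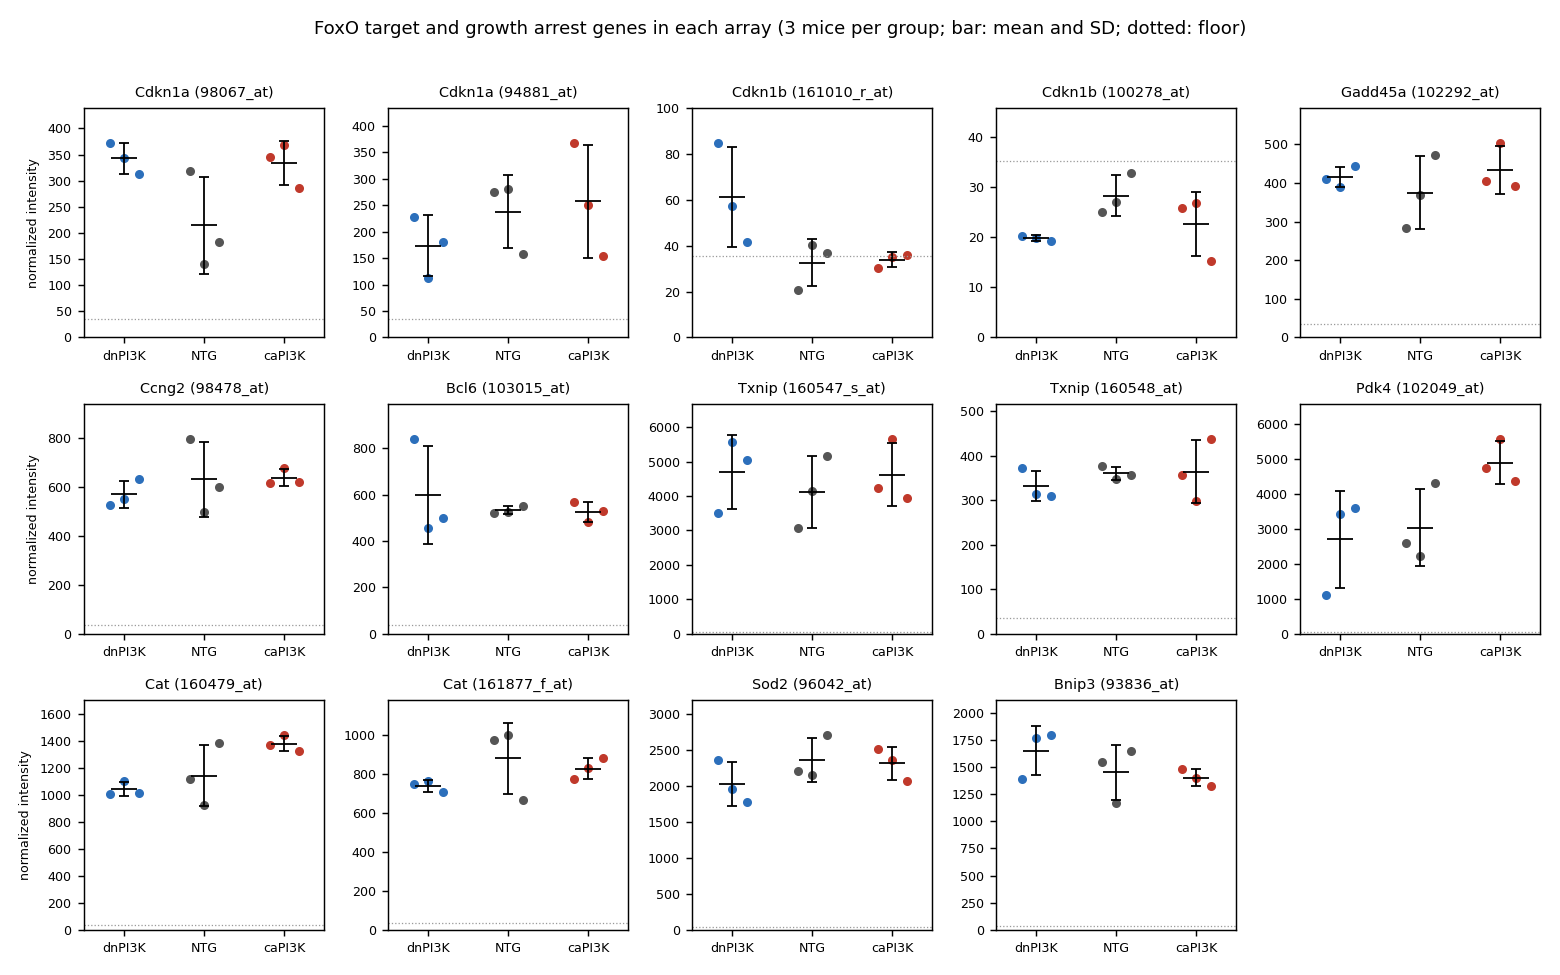
Normalized intensity (vertical axes, linear from 0) of each of the 14 probe sets on each array, with the 3 mice of dnPI3K (blue), NTG (grey) and caPI3K (red) side by side; horizontal bars are means, whiskers SD (n = 3), and the dotted line is the floor at 35.34. Groups overlap in most panels, Pdk4 and Cat (160479_at) lie higher in caPI3K than in dnPI3K on every array, and Cdkn1b (100278_at) stays below the floor.

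The cell cycle inhibitors come first. Cdkn1a encodes p21, which blocks cyclin-dependent kinases. Its probe set 98067_at read 345.8, 367.5 and 286.6 units in the 3 caPI3K mice, 372.5, 343.6 and 313.2 in dnPI3K and 318.5, 140.7 and 183.6 in NTG. Both transgenic groups lay high, and 1 NTG mouse overlapped with them while the other NTG mice lay low. The log2 fold change was 0.72 ± 0.280 (SE) in caPI3K against NTG (95% interval 0.10 to 1.33, adjusted p = 0.652). In dnPI3K against NTG it was 0.76 ± 0.280 (0.14 to 1.38, adjusted p = 0.226). Both values rest on the same 3 NTG arrays. The direct difference between caPI3K and dnPI3K was -0.05 (interval -0.66 to 0.57). Without NTG replicate 1 the 2 differences from NTG were 1.05 and 1.09, and without NTG replicate 2 they were 0.46 and 0.50, with adjusted p-values no lower than 0.0553 over all alternatives. The second Cdkn1a probe set, 94881_at, had another pattern. It read 367.9, 249.9 and 153.4 in caPI3K, 227.6, 113.2 and 179.9 in dnPI3K and 275, 280.3 and 157.5 in NTG. Its differences from NTG were 0.07 (interval -0.78 to 0.92) in caPI3K and -0.46 (-1.31 to 0.38) in dnPI3K.

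Cdkn1b encodes p27, the inhibitor that FoxO factors are best known for inducing. Its probe set 161010_r_at read 84.96, 57.56 and 41.5 in dnPI3K, 20.88, 40.4 and 36.82 in NTG and 30.21, 35.28 and 36.17 in caPI3K. The dnPI3K arrays all lay above the others, but all values were close to the floor, and the probe set passed the filter with 6 of 9 arrays above it, 3 of them dnPI3K. Its log2 fold change was 0.65 ± 0.281 in dnPI3K against NTG (interval 0.03 to 1.27, adjusted p = 0.316) and -0.72 ± 0.281 in caPI3K against dnPI3K (-1.34 to -0.10, adjusted p = 0.219). Without dnPI3K replicate 1 the latter was -0.46. The other Cdkn1b probe set, 100278_at, was not above the floor on any array (15.37 to 32.87) and gave no measured change.

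Gadd45a and Ccng2, which act in growth arrest, differed little between groups. Gadd45a, induced by DNA damage and other stress, read 404.8, 504.5 and 393.2 in caPI3K, 411.8, 391 and 443.9 in dnPI3K and 282.7, 370.3 and 473.6 in NTG. The NTG mice spanned the range of nearly all other arrays. Its differences were 0.23 ± 0.203 in caPI3K against NTG and 0.18 ± 0.203 in dnPI3K against NTG (adjusted p = 0.855 and 0.76). Ccng2 encodes cyclin G2, an unusual cyclin that holds cells out of the cycle. It read 614.5, 677.6 and 619.9 in caPI3K, 527.7, 551.3 and 630.8 in dnPI3K and 796.6, 497.7 and 598.2 in NTG. Both its highest and its lowest array were NTG, and caPI3K differed from dnPI3K by 0.16 ± 0.171 (interval -0.21 to 0.54, adjusted p = 0.714).

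Bcl6 encodes a repressor of transcription that FoxO factors induce. It read 567.6, 479.8 and 530.8 in caPI3K, 520.2, 524.7 and 552.7 in NTG and 840.3, 455.7 and 498.3 in dnPI3K. The single high array, dnPI3K replicate 1, set the direction. The dnPI3K mean differed from NTG by 0.11 ± 0.209 with that array (adjusted p = 0.858) and by -0.16 without it.

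Pdk4 encodes a mitochondrial kinase that shuts off pyruvate dehydrogenase and so favours fatty acids over glucose as fuel. It varied most, 5.02-fold between the lowest and the highest array. Its intensity was 4752, 5579 and 4378 in caPI3K, 2608, 2212 and 4304 in NTG and 1111, 3416 and 3596 in dnPI3K. The caPI3K mice were higher than all other mice, although NTG replicate 3 came close, which is opposite to the direction of the textbook scheme. The log2 fold change was 1.03 ± 0.392 in caPI3K against dnPI3K (2.04-fold, interval 0.16 to 1.90, adjusted p = 0.208) and 0.74 ± 0.392 in caPI3K against NTG (1.67-fold, -0.12 to 1.61, adjusted p = 0.753). Neither passed the threshold. The former fell to 0.48 without dnPI3K replicate 1 (adjusted p = 0.373). In mice numbered from 2800, with 2 per group, caPI3K lay above NTG by 1.10, and in those numbered from 3100, with 1 per group, by 0.02.

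Txnip encodes a thioredoxin-binding protein that restrains glucose uptake. Its probe set 160547_s_at read 4248, 5662 and 3948 in caPI3K, 3499, 5569 and 5043 in dnPI3K and 3058, 4135 and 5161 in NTG. Each group spread over nearly the same range, and caPI3K differed from dnPI3K by -0.02 ± 0.218 (interval -0.50 to 0.46, adjusted p = 0.983). The other probe set, 160548_at, lay between 297.2 and 437.6 on all arrays, with a difference of 0.12 ± 0.184 (interval -0.29 to 0.53). Among the 10 genes Txnip alone had the FoxO consensus letters GTAAACA, on either strand, in its promoter window. That window runs from 250 bases before the start of the gene to 50 after it in RefSeq (GRCm38.p6), and 3.65% of all 32851 windows of 300 bases hold these letters. All 10 genes had a window. The match is shown with its flanks because Txnip levels did not separate the groups, with capitals marking the consensus, 121 bases before the start, at chr3:96557816-96557862 on the plus strand.

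Txnip: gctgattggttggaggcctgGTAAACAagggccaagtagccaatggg

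The shorter core AAACA, which lies inside the consensus, occurred on either strand in 5 of the 12 windows of the 10 genes, and in 50.5% of all windows. One was that of Ccng2, where the core occurs 14 and 8 bases before the start. The first of these is in capitals below, at chr5:93267539-93267583 on the plus strand, for comparison with Txnip. Such letters describe the sequence and do not show a bound site.

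Ccng2: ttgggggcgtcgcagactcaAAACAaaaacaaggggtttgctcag

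Cat encodes catalase, which breaks down hydrogen peroxide. Probe set 160479_at read 1372, 1446 and 1331 in caPI3K, 1010, 1106 and 1018 in dnPI3K and 1123, 928.1 and 1384 in NTG. All caPI3K arrays lay above all dnPI3K arrays, and the NTG arrays spanned both. The log2 fold change of caPI3K against dnPI3K was 0.41 ± 0.136 (1.32-fold, interval 0.10 to 0.71), with an adjusted p of 0.152 that ranged from 0.0516 to 0.35 over the alternatives, so it did not pass. It lay at 0.37 to 0.45 with 1 array left out. Against NTG caPI3K was at 0.29 ± 0.136 (adjusted p = 0.722), from 0.46 in mice numbered from 2800 and -0.06 in those numbered from 3100. The second Cat probe set, 161877_f_at, is of a type that can share sequence within a gene family. It read 773.5, 828.1 and 879.4 in caPI3K, 749, 763.3 and 705 in dnPI3K and 971.8, 999.3 and 667.4 in NTG. Here caPI3K was also above dnPI3K on every array, by 0.16 ± 0.155 (interval -0.18 to 0.50), and NTG replicate 3 was the lowest NTG array where the first probe set had it highest.

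Sod2, the manganese superoxide dismutase of mitochondria, read 2519, 2361 and 2070 in caPI3K, 2368, 1955 and 1775 in dnPI3K and 2215, 2158 and 2708 in NTG. The groups overlapped throughout. Its differences were -0.02 ± 0.132 in caPI3K against NTG, -0.22 ± 0.132 in dnPI3K against NTG and 0.19 ± 0.132 in caPI3K against dnPI3K, with adjusted p-values of 0.981, 0.498 and 0.531. Bnip3, an outer membrane protein of mitochondria that acts in mitophagy and cell death, read 1484, 1398 and 1326 in caPI3K, 1391, 1770 and 1794 in dnPI3K and 1542, 1166 and 1645 in NTG. The dnPI3K replicates 2 and 3 were the highest of all, and replicate 1 lay among the caPI3K mice. caPI3K differed from dnPI3K by -0.23 ± 0.145 (interval -0.55 to 0.09, adjusted p = 0.495).

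**Figure D2:**
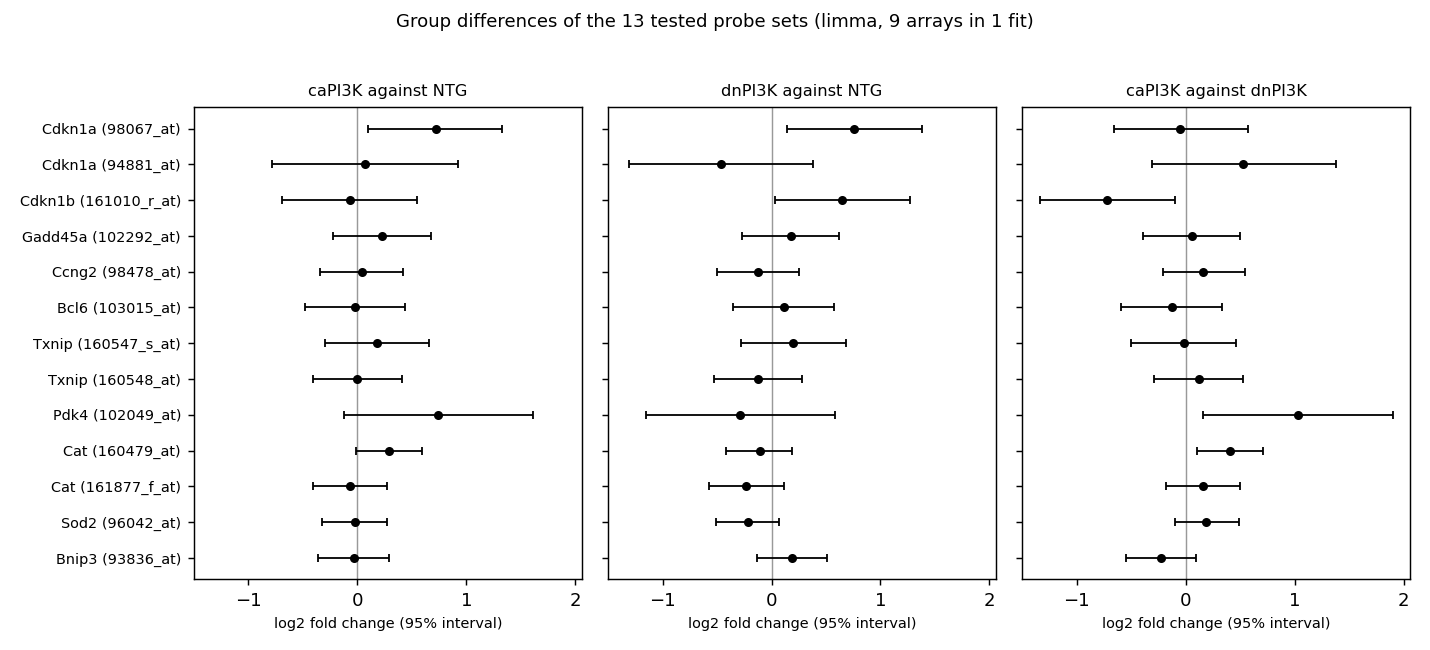
Log2 fold change (horizontal axis) with its 95% interval for each of the 13 tested probe sets in the 3 comparisons, from 1 limma fit of 9 arrays. The intervals of Cdkn1a (98067_at) lie above 0 in both comparisons with NTG, those of Pdk4 and Cat (160479_at) lie above 0 and that of Cdkn1b below 0 in caPI3K against dnPI3K, and none passed after adjustment.

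As a list, the 13 probe sets did not move one way. In caPI3K against dnPI3K 8 had a log2 fold change above 0 and 5 below, with a median of 0.121, against 0 over all probe sets tested. In caPI3K against NTG 7 were above 0 and 6 below, with a median of 0.041 against -0.001, and in dnPI3K against NTG 6 and 7, with a median of -0.115 against 0.003. Groups did not overlap for 1 probe set in caPI3K against NTG (Pdk4), where 12.1% of all probe sets had groups apart. They did not overlap for 1 in dnPI3K against NTG (Cdkn1b), with a background of 19.1%. In caPI3K against dnPI3K they did not overlap for 4 (Pdk4, both Cat probe sets and Cdkn1b), or 30.8% of 13, against 23.7%. The textbook scheme gives the order dnPI3K above NTG above caPI3K. By means of normalized intensity it occurred for 2 of the 13 probe sets (Bcl6 and Bnip3). The reverse order occurred for 5, those of Cdkn1a (94881_at), Ccng2, Txnip (160548_at), Pdk4 and Cat (160479_at). The log2 values with the floor differed for some probe sets. There Cdkn1b (161010_r_at), close to the floor, also had the textbook order, at -0.07 in caPI3K and 0.65 in dnPI3K against NTG. Txnip (160548_at) was at 0.00 in caPI3K against NTG, so its reverse order was not clear on that scale. Half-widths of the 95% intervals ran from 0.29 to 0.87 with a median of 0.45 on the log2 scale. These intervals are not adjusted for the number of probe sets tested.

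**Figure D3:**
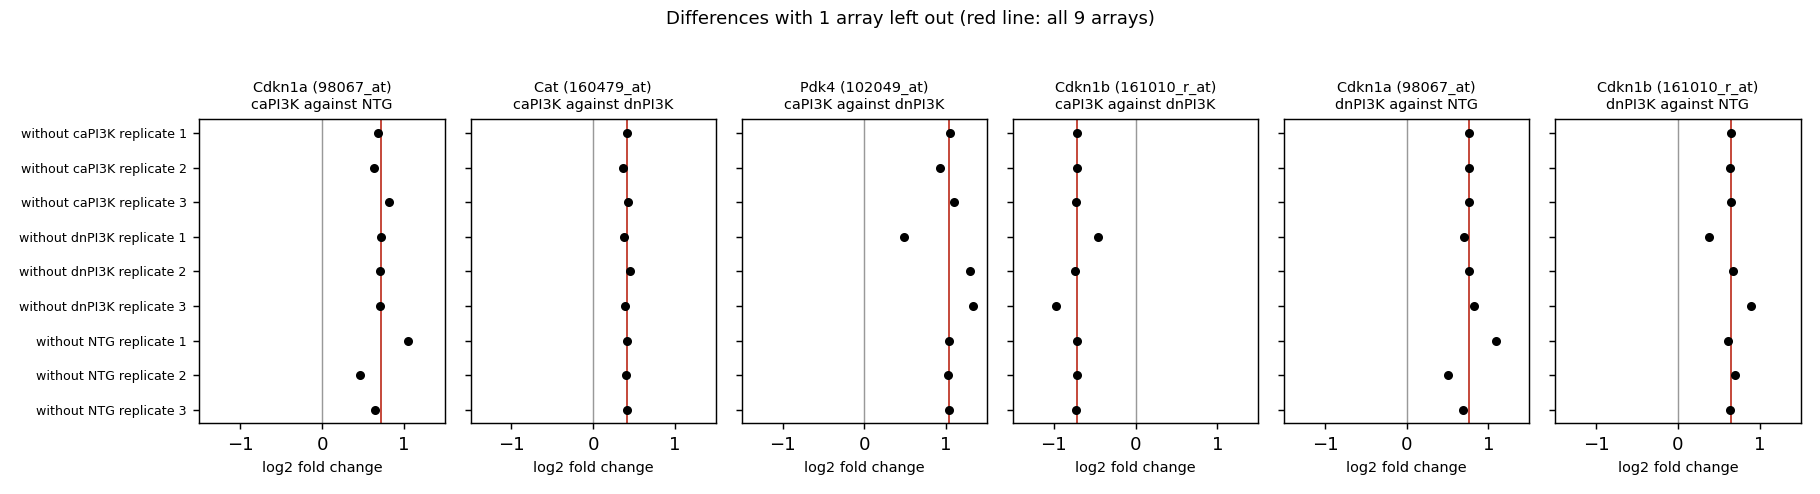
Log2 fold change (horizontal axis) of the member probe sets and comparisons with an unadjusted p under 0.05 when each array in turn is left out (rows); the red line is the value with 9 arrays and the grey line is 0. Pdk4 falls from 1.03 to 0.48 without dnPI3K replicate 1, Cat stays between 0.37 and 0.45, and Cdkn1a depends on NTG replicates 1 and 2.

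Among the lists of upstream genes and other FoxO targets, Irs2 belongs to both. It encodes an insulin receptor substrate that recruits PI3K to the receptor, and it is a textbook FoxO target. Irs2 read 342.9, 491.1 and 398.2 in dnPI3K, 158.3, 148.9 and 107.4 in NTG and 49.09, 44.38 and 91.46 in caPI3K. The groups did not overlap, in the order that the textbook scheme gives. Irs2 was lower in caPI3K than in dnPI3K (log2 fold change -2.80 ± 0.331, interval -3.53 to -2.07, adjusted p = 0.00138) and passed under all 20 alternatives, at -1.85 with the floor at the 40th percentile. It rose by 1.58 ± 0.331 in dnPI3K against NTG (adjusted p = 0.04), a call lost in 10 of 20 alternatives, among them without any dnPI3K or NTG array or caPI3K replicate 1 (1.41 to 1.70). In caPI3K against NTG it was at -1.22 and did not pass (adjusted p = 0.453).

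**Figure D4:**
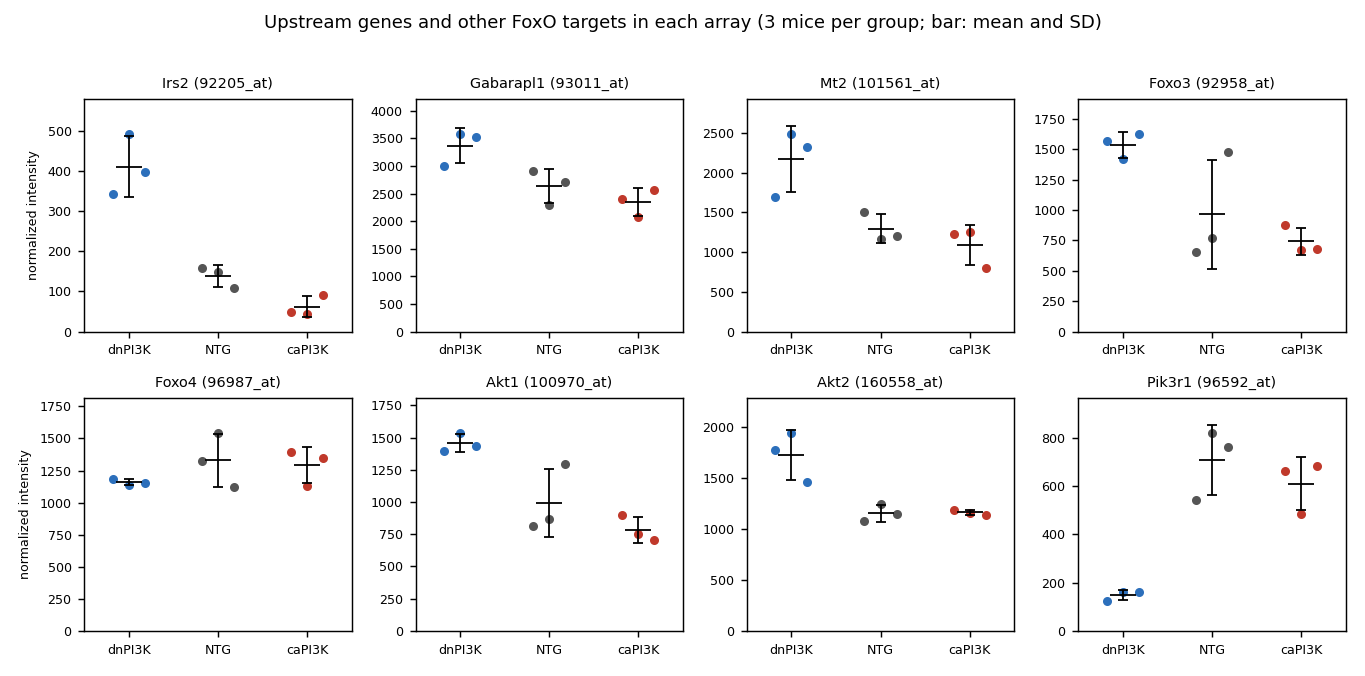
Normalized intensity (vertical axes, linear from 0) of 8 genes on each array, with groups and bars as in the plot of the members by array. The genes are upstream genes, other FoxO targets and Mt2, which comes from the list of other antioxidant enzymes and metallothioneins and was not listed as a FoxO target. Irs2 separates all 3 groups, dnPI3K lies above both other groups for Gabarapl1, Mt2 and Akt2 and below them for Pik3r1, and NTG replicate 3 lies apart from the other NTG mice for Foxo3 and Akt1. The panels are a selection of the named genes. Tradd, a FoxO target of cell death that is not plotted, went the other way. It was higher in caPI3K than in dnPI3K (log2 fold change 1.77, limma adjusted p = 0.0328), a call lost in 7 of 20 alternatives.

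Of 16 measured genes of the list of FoxO factors and PI3K-Akt signalling, 1 was higher and 4 were lower in caPI3K than in dnPI3K (median -0.39), where 3.24% of all probe sets passed. Pik3r1, the p85 alpha subunit of PI3K, was the one that was higher (2.03 ± 0.216, adjusted p = 8.51e-04). It read 122.6, 161.6 and 160.8 in dnPI3K, 661.4, 482.4 and 683.1 in caPI3K and 542.1, 817.3 and 759.7 in NTG. The difference lay in dnPI3K. Against NTG Pik3r1 was at -2.24 in dnPI3K (adjusted p = 5.74e-04), a call kept in all 20 alternatives, and at -0.21 in caPI3K (adjusted p = 0.878). The lower ones were Irs2, Akt1, Akt2 and Foxo3. Akt1, the widely expressed Akt kinase, read 895.8, 749.6 and 702 in caPI3K, 1397, 1532 and 1436 in dnPI3K and 811.9, 869.2 and 1297 in NTG (-0.90 ± 0.171, adjusted p = 0.0175). Its call was lost without caPI3K replicate 2 or 3 or dnPI3K replicate 2 or 3 (-0.91 to -0.83), with no filter on dim probe sets (adjusted p = 0.0681) and with no intensity trend (adjusted p = 0.0748). Akt2, the main Akt of insulin action, changed by -0.56 ± 0.117 (adjusted p = 0.0286), lost without any caPI3K array or dnPI3K replicate 1 or 2 (-0.57 to -0.47), with no filter (adjusted p = 0.0578) and with no intensity trend (adjusted p = 0.115). Akt2 was also higher in dnPI3K than in NTG (0.57, adjusted p = 0.0352), a call lost without any single array other than dnPI3K replicate 3 (0.48 to 0.62). That call was also lost with no filter, no intensity trend or only the 2 groups compared (adjusted p = 0.0663, 0.126 and 0.0911).

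Foxo3 and Foxo4 were the FoxO genes measured. Foxo3, named after its values were seen, read 873.6, 669 and 682.2 in caPI3K, 1568, 1417 and 1624 in dnPI3K and 651.8, 767 and 1478 in NTG. The caPI3K and dnPI3K mice did not overlap, and NTG replicate 3 lay with dnPI3K. Its difference between caPI3K and dnPI3K was -1.06 ± 0.252 (adjusted p = 0.0489), just past the threshold. It was lost without any array of either transgenic group or NTG replicate 2 (-1.18 to -0.99). It was also lost with the floor at the 5th percentile, no filter or no intensity trend (adjusted p = 0.0539, 0.154 and 0.129). Foxo4 read 1131 to 1396 in caPI3K, 1138 to 1187 in dnPI3K and 1119 to 1539 in NTG, and did not pass (0.15, adjusted p = 0.641).

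Among 14 measured other FoxO targets of metabolism, atrophy and autophagy, Irs2 and Gabarapl1 were lower in caPI3K than in dnPI3K, none was higher, and the median was -0.18. In this comparison 3.24% of all probe sets passed. Gabarapl1 encodes a protein of the autophagosome membrane. It read 2404, 2074 and 2566 in caPI3K, 2999, 3576 and 3532 in dnPI3K and 2906, 2292 and 2718 in NTG (-0.52 ± 0.120, adjusted p = 0.0428). The dnPI3K mice were above all others. Its call was lost when arrays were scaled to the same median and without any caPI3K array or dnPI3K replicate 2 or 3 (-0.59 to -0.43). It was also lost with no filter (adjusted p = 0.101) and no intensity trend (adjusted p = 0.16). Against NTG this list had 0 genes past the threshold in caPI3K and 1, Irs2, in dnPI3K, where 3 and 4 had an unadjusted p under 0.05. Of all probe sets 6.9% and 14.8% had an unadjusted p under 0.05 in these comparisons.

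The other lists held few calls in caPI3K against dnPI3K, where 3.24% of all probe sets passed. An unadjusted p under 0.05 was found for 16.4% of all probe sets. It was found for 7 of 14 other antioxidant genes, 5 of 13 hypoxia inducible genes and 1 of 4 cell death genes. Of 21 other CDK inhibitors, cyclins and Gadd45 genes, 0 passed (median 0.02, and 3 at an unadjusted p under 0.05), and of 8 p53 targets and 8 glucose sensing and glucocorticoid genes 0 passed (4 and 0 at an unadjusted p under 0.05). Of 14 other antioxidant enzymes and metallothioneins 1 was lower, the metal-binding Mt2, at 1228, 1252 and 802.1 in caPI3K, 1697, 2484 and 2325 in dnPI3K and 1504, 1170 and 1206 in NTG (log2 fold change in the interval -1.43 to -0.56, adjusted p = 0.021). That call was lost without caPI3K replicate 3 or dnPI3K replicate 2 or 3 (-0.94 to -0.79). Of 13 hypoxia inducible genes, Bnip3 among them, 1 was lower, the pyruvate dehydrogenase kinase Pdk1 (-0.59 ± 0.135, adjusted p = 0.0412), and its call was lost without any array of either transgenic group (-0.66 to -0.52). Of 4 measured FoxO targets of cell death 1 was higher, the TNF receptor adaptor Tradd (1.77 ± 0.384, adjusted p = 0.0328), which was lost without any caPI3K array or dnPI3K replicate 1 or 3 (1.52 to 1.86). With no filter on dim probe sets the adjusted p was 0.09 for Mt2, 0.0549 for Pdk1 and 0.131 for Tradd, and with no intensity trend it was 0.0841, 0.0995 and 0.0993, so each of these calls was lost there too.

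Pdk4 is also a target of PPAR alpha, the nuclear receptor that switches on fatty acid oxidation. Of 12 measured genes of that list, Pdk4 and Ppara included, 3 were higher in caPI3K than in dnPI3K and 0 lower, with a median of 0.41. Of all probe sets 3.24% passed in this comparison, and Ppara was 1 of the 3. Ppara itself read 1706, 1633 and 1683 in caPI3K, 1593, 1838 and 1756 in NTG and 663, 439 and 399.7 in dnPI3K (1.78 ± 0.166 in caPI3K against dnPI3K, adjusted p = 2.96e-04). The dnPI3K mice lay below all others. The dnPI3K mouse with the lowest Pdk4, replicate 1, had the highest Ppara of its group. Whether Ppara had a part in the Pdk4 difference was not tested. Fabp3, a carrier of fatty acids in muscle (0.42 ± 0.0893, adjusted p = 0.0313), and the medium-chain dehydrogenase Acadm (0.48 ± 0.114, adjusted p = 0.0466) were the others. Fabp3 lost its call without caPI3K replicate 2 or 3 or any dnPI3K array (0.36 to 0.44), and Acadm without caPI3K replicate 2 or 3, any dnPI3K array, or NTG replicate 1 or 2 (0.38 to 0.57). With no filter and with no intensity trend both were lost as well (adjusted p = 0.0622 and 0.168 for Fabp3, 0.109 and 0.178 for Acadm). Acadm was also lost with the floor at the 5th percentile (adjusted p = 0.0528) and with only the 2 groups compared (adjusted p = 0.0623). Against NTG, Ppara fell by 1.82 in dnPI3K, a call kept in all 20 alternatives. Fabp3 fell by 0.50, a call lost in 5 of 20, with no intensity trend (adjusted p = 0.13) and without any dnPI3K array or NTG replicate 2 (-0.52 to -0.49). In the same list 0 of the 12 passed in caPI3K against NTG (1 at an unadjusted p under 0.05).

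By the root mean square difference of centred log2 values over the 9 arrays, the named probe sets nearest to Cat (160479_at), the member with the smallest p across the 3 groups, were those of Ufc1 (0.0766), Marchf5 (0.0800), Psmb5 (0.0874), Wnk1 (0.0916) and Psmd11 (0.0943). The SD of Cat itself over the arrays was 0.236 on that scale. Ufc1 averaged 703 units in caPI3K, 519.3 in dnPI3K and 545.3 in NTG. Psmb5 and Psmd11 encode proteasome subunits. These neighbours were picked by their closeness in the same data, and a shared function was not tested.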

How the data were processed

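The deposited intensity values, 1 per probe set and array, are linear and above 0. Per the labels, the scanner's photomultiplier was set to 10%. How the signal was computed is not stated in the labels. Equal means without the lowest and highest 2% of values show that the authors scaled each array.

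Values were quantile normalized, raised to a floor (20th percentile, 35.34) and converted to log2. Probe sets above the floor on at least 3 arrays were tested, without the 66 array controls. Symbols come from the platform annotation, and all 14 member probe sets matched by Entrez gene in RefSeq. One limma 3.58.1 fit (R 4.3.3; intensity trend; group as the only term) held all 9 arrays, with two-sided Benjamini-Hochberg adjusted p-values and a threshold of 0.05. Replicate numbers follow deposition order and pair no mice. The procedure was tested on simulated data.

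The named genes were all member probe sets and up to 4 genes past the threshold per list, by smallest p, and the 5 probe sets nearest to the member with the smallest p across groups. Members and lists were chosen with earlier results of these data known. Lists were described by counts and medians, with the brightest probe set per gene. Alternatives changed normalization, floor, filter, moderation, array weights, probe set choice, groups fitted, a block for animal number series, and each array left out. Dixon's outlier test was not used for these groups of 3.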

Additional observations from a re-analysis of the deposited data

How the results depend on the processing

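No member probe set passed the threshold under any of the 21 alternatives (20 outside caPI3K against NTG, since the animal number block applies only there) (0 to 2 had an unadjusted p under 0.05 against NTG, and 1 to 3 between the transgenic groups). Of 778 recomputed member differences 737 kept their sign and 41 changed it. Pdk4 in dnPI3K against NTG went from -0.29 to 0.26 without dnPI3K replicate 1. The cause of these changes was not tested.

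In caPI3K against NTG, the sign changed with arrays scaled to the same median for Bcl6 (0.04), Bnip3 (0.07), Cat 161877_f_at (0.00), Sod2 (0.08) and Txnip 160548_at (0.03), without quantile normalization for Sod2 (0.00), with array weights for Ccng2 (-0.02) and Cdkn1a 94881_at (-0.03), and with the floor at the 5th percentile for Cdkn1b (0.10). With 1 array left out the values lay at -0.08 to 0.04 for Bcl6, -0.18 to 0.07 for Bnip3, -0.26 to 0.04 for Cat 161877_f_at, -0.12 to 0.22 for Ccng2, -0.23 to 0.40 for Cdkn1a 94881_at, -0.09 to 0.08 for Sod2, -0.02 to 0.36 for Txnip 160547_s_at and -0.14 to 0.13 for Txnip 160548_at. In dnPI3K against NTG they lay at -0.16 to 0.28 for Bcl6, -0.26 to 0.03 for Cat 160479_at, -0.28 to 0.06 for Ccng2, -0.01 to 0.36 for Gadd45a, -0.58 to 0.26 for Pdk4 and 0.00 to 0.40 for Txnip 160547_s_at. In caPI3K against dnPI3K they lay at -0.30 to 0.14 for Bcl6, -0.12 to 0.06 for Cdkn1a 98067_at, -0.06 to 0.12 for Gadd45a, -0.22 to 0.12 for Txnip 160547_s_at and -0.02 to 0.26 for Txnip 160548_at.

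The count of all probe sets past the threshold was 9 (caPI3K against NTG), 232 (dnPI3K against NTG) and 345 (between the transgenic groups). It was 1, 138 and 219 with no filter, 1, 94 and 151 with no intensity trend, 1 and 103 for the first 2 with only the groups compared, and 527 for the last with array weights. With 1 array left out it ranged from 0 to 20, 82 to 235 and 134 to 435. In the 4 settings with 0 limma calls, the unadjusted p was under 0.05 for 565 to 837. As a block, the animal number series moved no member past the threshold. No paired analysis was possible because the titles give animal numbers and no shared replicate numbers. The number of arrays limits the precision, and Cdkn1b lies too close to the floor for its size of change to be read.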

Other observations

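NTG replicate 3 was the highest of the 3 NTG arrays for 7 of the 13 tested probe sets and the lowest for 2, whereas NTG replicate 2 was the lowest for 7. Pdk4, Gadd45a, Txnip (160547_s_at), Bnip3, Sod2, Bcl6 and Cat (160479_at) were those for which NTG replicate 3 was highest.

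The E-box letters CACGTG occurred in the promoter windows of Bcl6 and Bnip3, in 2 of the 12 windows of the 10 genes and in 7.15% of all windows. The windows of Pdk4, Cat, Sod2, Gadd45a and Cdkn1a held neither these letters nor the FoxO core.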
